A study of Homo sapiens with 12 samples.

Results

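The regions described here were called for the nuclear receptor RORγ and for acetylated histone H3 lysine 27 (H3K27ac), without an SREBP2 call, in HCC70 cells given vehicle. A region of the RORγ vehicle list on chromosomes 1 to 22 or X was taken when it overlapped an H3K27ac vehicle region by at least 1 bp and no SREBP2 vehicle region. The rule found 3691 regions, 2.21% of the 167264 RORγ vehicle regions and 13.2% of the 27872 that were acetylated, out of 684829 regions in the 6 lists. The regions were thus chosen by the RORγ, H3K27ac and SREBP2 calls of the 3 vehicle libraries, and their vehicle values are given as a description.

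HCC70 is a triple-negative breast cancer cell line, and the study asked how RORγ and SREBP2 share chromatin in it. Cells received vehicle or XY018, a small-molecule RORγ antagonist, for 24 h, at 5 µM by the labels, while the methods of the study state a lower dose. Chromatin immunoprecipitation and sequencing was done for RORγ, SREBP2 and H3K27ac, with 1 library for each antibody and treatment and 1 input library beside each. All libraries came from this 1 line, so no difference between vehicle and XY018 has a replicate check, and no p-value is given.

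RORγ is a transcription factor of the nuclear receptor superfamily that binds DNA largely as a monomer, at a core hexamer preceded by an A- and T-rich stretch, together called a ROR response element (RORE). SREBP2 is released from the endoplasmic reticulum membrane when sterols are scarce and binds sterol response elements (SREs) at genes of cholesterol synthesis. H3K27ac marks active promoters and enhancers. Alu elements are the most numerous short interspersed repeats of primates, derived from 7SL RNA, and lie mainly in gene-rich, GC-rich chromatin.

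Of the 3691 regions, 2941 (79.7%, exact 95% interval 78.3 to 81.0) held Alu-like sequence within 100 bp of the summit, the base of highest tag pileup. Alu-like sequence was found by alignment with the first 120 bases of BCYRN1, a primate non-coding RNA whose 5′ part is an Alu monomer, and this search was chosen after the regions had been seen. Over the 2941 regions the median identity was 78.5% (quartiles 76.3 and 80.9) over a median of 82 aligned bases. The repeat lay on the plus strand at 1493 regions and on the minus strand at 1448.

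The full RORE core was sparse at the summits. It was present at 11 of the 3691 regions (0.298%, 0.149 to 0.533), and 1 of the 11 overlapped a RORγ region with XY018. That region lay in an intron of ATP6V0D1-DT, also held Alu-like sequence, and had 7 RORγ fragments with vehicle and 6 with XY018. The summit windows (the summit base and 100 bp to either side, hg19, plus strand) of 2 regions are shown, with the motif in capitals. Both regions overlapped an XY018 region and held no Alu-like sequence. They are examples of the AP-1 pattern and of a CTCF motif. The AP-1 pattern searched, TGANTCA, takes any base at the centre of the FOS and JUN site, and the SH3D21 window has T there.
SH3D21 intron, AP-1, chr1:36773230-36773430: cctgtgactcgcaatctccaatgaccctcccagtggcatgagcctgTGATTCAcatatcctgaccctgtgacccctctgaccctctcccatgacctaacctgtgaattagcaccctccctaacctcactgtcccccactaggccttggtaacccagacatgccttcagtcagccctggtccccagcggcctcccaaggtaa
MARCHF3 promoter, CTCF, chr5:126366874-126367074: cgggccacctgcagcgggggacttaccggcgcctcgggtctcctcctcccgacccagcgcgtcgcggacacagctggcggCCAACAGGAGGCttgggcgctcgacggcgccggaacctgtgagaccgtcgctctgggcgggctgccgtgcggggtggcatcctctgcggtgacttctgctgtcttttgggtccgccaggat
The MARCHF3 region, at the promoter of a membrane-associated ubiquitin ligase gene, had 4 RORγ fragments with vehicle and 13 with XY018.

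The RORγ calls at these regions were weak. Fold, as written by the peak caller MACS, divides the pileup at the summit by the local background after adding 1 to each, and it ranged from 2.11 to 7.17 with a median of 3.36. The pileups recovered from fold and −log10 p ranged from 3 to 16 fragments with a median of 6, and 80.6% of regions had 7 fragments or fewer. The median width was 215 bp, and 1346 regions (36.5%) had the smallest width of the list, 195 bp. Acetylated RORγ regions that overlapped SREBP2, called co-bound below (n = 24181), had a median fold of 9.66, 20 fragments and a width of 602 bp. RORγ regions with neither SREBP2 nor H3K27ac (n = 105682), called non-acetylated below, resembled the described regions, with a median fold of 3.36, 6 fragments and 216 bp. Of the 3691 regions, 1588 (43.0%) passed a q of 0.01 and 83 (2.25%) a q of 1e-05, against 77.9% of co-bound regions at the latter. The RORγ and SREBP2 lists used here are longer than the sets of high-confidence sites that the study reports. The described regions were not limited to those sets.

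Of the 12 regions of highest fold, 5 had their summit in an intron, 5 in a window at a transcript end, 1 in a promoter window and 1 in intergenic DNA. An intronic region of CUX1, a homeobox transcription factor gene, at chr7:101649713-101650022 had the highest fold, 7.17, from 13 fragments with vehicle, and no RORγ, SREBP2 or H3K27ac call with XY018. A region that overlapped the promoter window of INAVA, a regulator of innate signalling and cell junctions, at chr1:200881092-200881458 had 13 fragments with vehicle and 8 with XY018. A PMS2 region, in a gene of DNA mismatch repair, had 11 and 9, and a TMEM39B intron had 11 and 6. The exact 95% Poisson intervals of the vehicle and XY018 counts overlapped at each of these 3. EP300, the gene of a histone acetyltransferase that deposits H3K27ac, held a region with 14 fragments with vehicle and no RORγ call with XY018, in the 3′ part of the gene (chr22:41570066-41570380). Of the 12 regions of highest vehicle fold, INAVA, PMS2 and TMEM39B were called again with XY018, and 10 held Alu-like sequence, all but INAVA and NME4, a mitochondrial nucleoside diphosphate kinase gene.

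**Figure D1:**
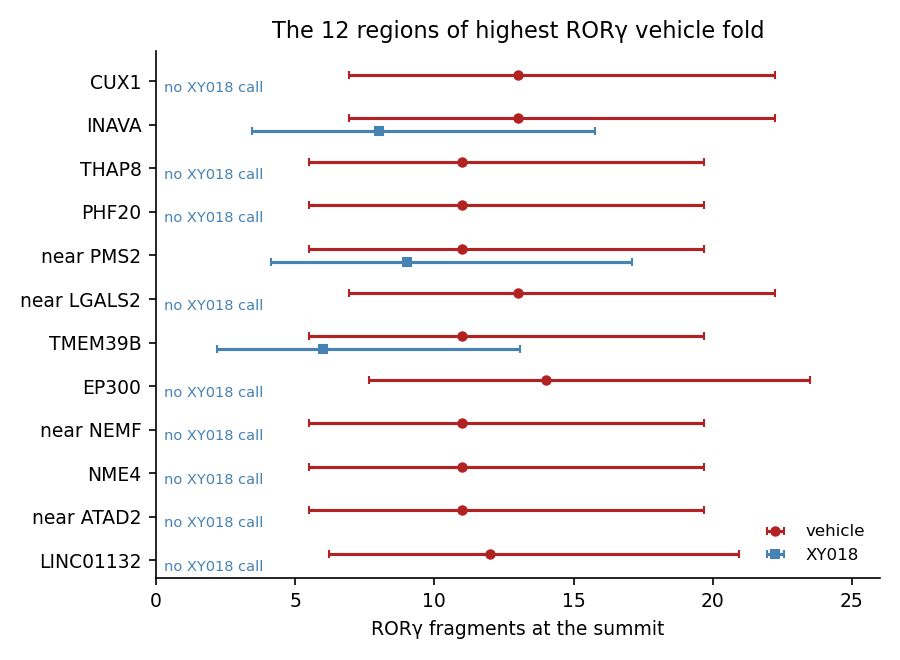
RORγ fragments at the summit (x axis) of the 12 regions of highest RORγ vehicle fold, with vehicle (circles) and XY018 (squares) and exact 95% Poisson intervals, which cover counting error only. The vehicle values lie between 11 and 14, and 9 of the 12 regions have no XY018 call.

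At the other edge of the rule, the lowest fold, 2.11, was shared by intronic regions of MYO10, an unconventional myosin gene, and DENND4C, each with 8 fragments. The regions nearest to an SREBP2 region, in MPP7 and LSM4, abutted it with a gap of 0 bp. Just outside the rule lay a RORγ region at chr16:1445324-1445536 with 5 fragments that overlapped SREBP2 by 1 bp.

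The acetylated chromatin under these regions was weaker than that under co-bound regions. The 3691 regions lay in 3600 H3K27ac regions, of which 3513 held 1, 83 held 2 and 4 held 3. The median H3K27ac fold was 5.38, against 13.4 under co-bound regions and 5.99 over all H3K27ac vehicle regions, and the median summit pileups were 13, 34 and 15 fragments. The RORγ summit lay inside the H3K27ac region at 85.4% of regions, at a median of 133 bp from the H3K27ac summit, against 64 bp at co-bound regions. The H3K27ac regions that held 3 lay in NUP155, a nuclear pore gene, PPIA, the cyclophilin A gene, MYO1F, a myosin gene of blood cells, and at the NIP7 and COG8 promoters. The NIP7 and COG8 region also held SREBP2 and a co-bound region, with 91 H3K27ac fragments against 13 to 21 in the other 3. A region at MMEL1, a metalloprotease gene, held 2 and was the next by the same order.

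SREBP2 was often near. The median gap to the nearest SREBP2 vehicle region was 2574 bp, against 7072.5 bp for non-acetylated regions, and 1126 regions (30.5%) lay within 1 kb while 675 (18.3%) lay over 10 kb away. For 566 regions (15.3%) the H3K27ac region underneath held an SREBP2 region elsewhere along its length. Of all H3K27ac regions 32.1% overlapped SREBP2. The rule had removed the RORγ regions that overlapped SREBP2, so no difference is read from these shares.

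Introns held most of the summits, 59.3% (57.7 to 60.9). Intergenic DNA held 18.9%, windows at transcript ends 8.02% and coding exons 0.352%. A promoter window, reaching 1000 bp upstream and 100 bp downstream from each annotated transcript start, was overlapped by 480 regions (13.0%, 11.9 to 14.1). The share was 59.5% for co-bound regions, 5.33% for non-acetylated ones and 15.7% for H3K27ac regions with neither factor. The median distance from the summit to a protein-coding transcript start was 5795 bp, between the 584 bp of co-bound and the 27575.5 bp of non-acetylated regions.

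The Alu-like sequence was centred on the summits. At 1 kb to either side it was found in 30.0% of windows, against 79.7% at the summit. The share at the summit was 73.0% in non-acetylated regions, 2.06% in co-bound regions, 26.6% in acetylated SREBP2 regions without RORγ and 47.2% in H3K27ac regions with neither factor. Windows placed every 20 kb along the genome held it at 11.5%. Co-bound regions thus lay below the genome, and the described regions far above it.

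**Figure D2:**
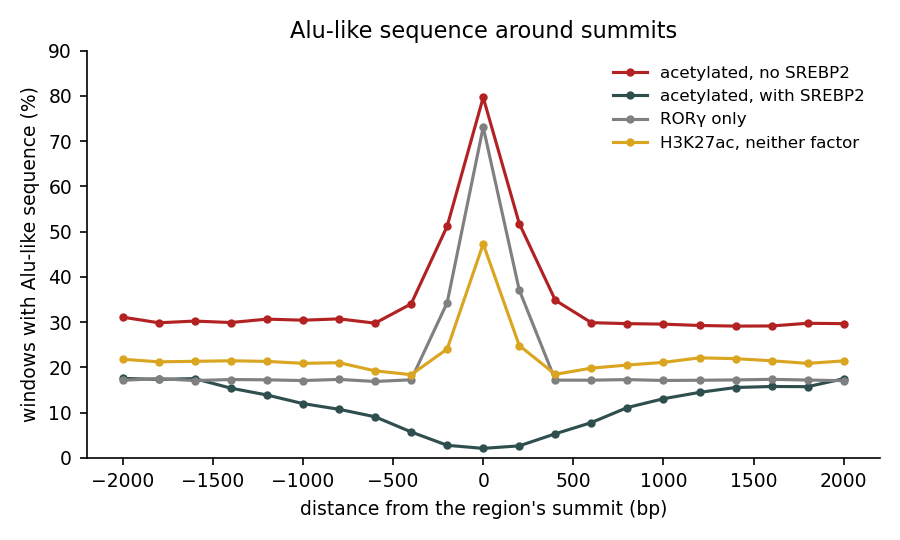
Share of windows of 100 bp to either side with Alu-like sequence (y axis, %) at distances from the summit (x axis, bp, every 200 bp to 2 kb) for 4 kinds of region, with every 5th region read for all but the described ones. The described regions rise from 30.4% at 1 kb upstream to 79.7% at the summit, while co-bound regions fall to 2.09%.

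The difference between the kinds of region was also present at like strength of the call. Within 10 classes of RORγ vehicle fold weighted by the described regions, the share with Alu-like sequence was higher than in co-bound regions by 69.3 percentage points (67.6 to 70.9) and than in non-acetylated regions by 6.60 points (5.28 to 7.92). Among described regions the share was 75.1% (72.3 to 77.8) below a fold of 3, 80.0% from 3 to below 4, 85.7% from 4 to below 5 and 86.8% (79.2 to 92.4) from 5. Among co-bound regions it moved the other way, from 12.7% below a fold of 3 to 0.304% from 5. These intervals cover counting error only.

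The repeat was also at the summit of the acetylation itself. Of H3K27ac regions with a described region and no SREBP2 call (n = 3046), 80.7% held Alu-like sequence at their own H3K27ac summit, against 46.9% of regions with neither factor in the same 10 classes of H3K27ac fold, a difference of 33.8 points (32.3 to 35.2). Tags with several possible positions are not recorded in region lists, and the part of repeat sequence in the RORγ and H3K27ac calls was not tested.

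The hexamer AGGTCA, the core of nuclear receptor sites, was found on either strand within 100 bp of the summit at 1208 regions (32.7%, 31.2 to 34.3). The share was 18.2% at 1 kb to either side, 6.74% at co-bound summits and 12.6% over the genome. It divided by repeat. Among the regions with Alu-like sequence 37.5% (35.8 to 39.3) held AGGTCA, beside 33.5% (32.7 to 34.2) of genomic windows with Alu-like sequence and 40.6% of non-acetylated regions with it. Among the 750 without, 13.9% (11.5 to 16.5) held it, beside 9.85% (9.69 to 10.0) of genomic windows without. H3K27ac regions with neither factor, read at their own summits, held it at 41.1% (40.5 to 41.6) with Alu-like sequence. Without Alu-like sequence they held it at 12.8% (12.5 to 13.2), so the hexamer was not particular to the described regions. In the described regions with both repeat and hexamer, the hexamer lay at a median of 54.5 bp from the summit (quartiles 28.5 and 72.5, n = 1104), in a window that reached 100 bp.

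**Figure D3:**
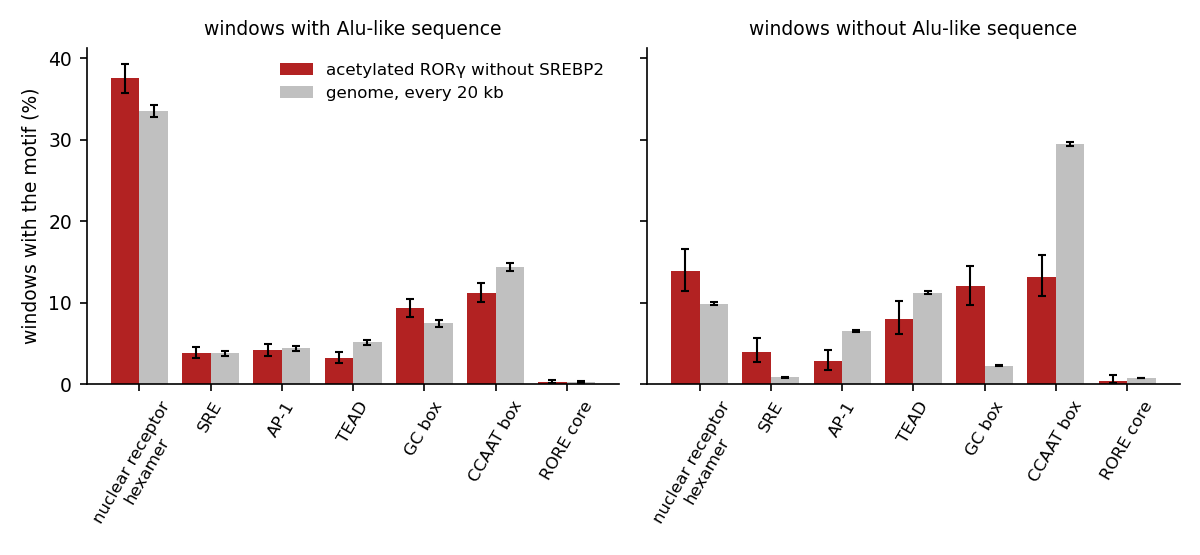
Share of windows with each motif (y axis, %) at the summits of the described regions and at genomic positions every 20 kb, for windows with (left) and without (right) Alu-like sequence, with exact 95% intervals. The nuclear receptor hexamer stands at 37.5% and 33.5% with Alu-like sequence, and at 13.9% and 9.85% without.

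The SRE did not divide in this way. The motif (TCACNCCAC) was found at 3.87% of regions (3.27 to 4.55), against 2.52% at 1 kb to either side and 1.18% of the genome. With Alu-like sequence its share was 3.84% at the regions and 3.80% in the genome. Without it the share was 4.0% (2.71 to 5.66) at the regions, 3.52% (3.30 to 3.74) at non-acetylated regions and 0.844% in the genome. The RORE core, as the string searched, stood at 0.298%, below its 0.684% in the genome. With Alu-like sequence its share was 0.272% (0.118 to 0.535) at the regions and 0.251% in the genome. Without Alu-like sequence the share was 0.40% (0.0826 to 1.16), from 3 regions, against 0.741% in the genome. A match is a description of letters and not of a bound site.

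Motifs of enhancer factors were no more frequent than at the flanks, whose windows held Alu-like sequence less often and were not split by it. The AP-1 pattern, which takes any base at its centre, was found at 3.90% of summits and 5.49% of flanks. TEAD (GGAATG, bound with YAP) was found at 4.23% and 9.40%, RUNX (TGTGGTT) at 1.44% and 3.03%, and FOX (TGTTTAC) at 0.569% and 2.06%. Over all summits, most promoter motifs stayed below those of co-bound regions, which rarely held Alu-like sequence. The GC box (GGGCGG, bound by SP factors) was present at 9.83% against 58.7%, and ETS (CCGGAAG) at 1.0% against 4.07%. The E-box (CACGTG, bound by MYC and clock factors) stood at 2.79% against 5.69%, and CTCF at 0.352% against 2.68%. Among windows with Alu-like sequence, 499 of them co-bound, the GC box stood at 9.28% against 11.8% and ETS at 0.612% against 0.601%. The E-box stood there at 2.75% against 2.61% and CTCF at 0.170% against 0.200%. Among windows without it, the GC box stood at 12.0% against 59.7% and ETS at 2.53% against 4.14%. The E-box stood there at 2.93% against 5.76% and CTCF at 1.07% against 2.73%. The CCAAT box (CCAAT, bound by NF-Y) was the one promoter motif above co-bound regions, at 11.6% against 7.04%, and lay below its 19.6% at the flanks and 27.8% in the genome. The median GC content of the window was 52.2%, against 72.6% at co-bound regions and 39.8% in the genome.

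The regions were unevenly spread over chromosomes. Per 1000 H3K27ac vehicle regions, chromosome 19 held 70.8, chromosome 16 held 67.8, chromosome 22 held 51.2 and chromosome 7 held 48.4. Chromosome 4 held 13.0, the fewest, and chromosome 2 held 19.7. Across the 23 chromosomes this rate and the Alu-like share of genomic windows had a Pearson r of 0.683, given as a description, since chromosomes share the libraries and differ in base composition. Chromosome 17, with an Alu-like share of 20.9%, below that of chromosome 19 alone, had a rate of 25.8.

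**Figure D4:**
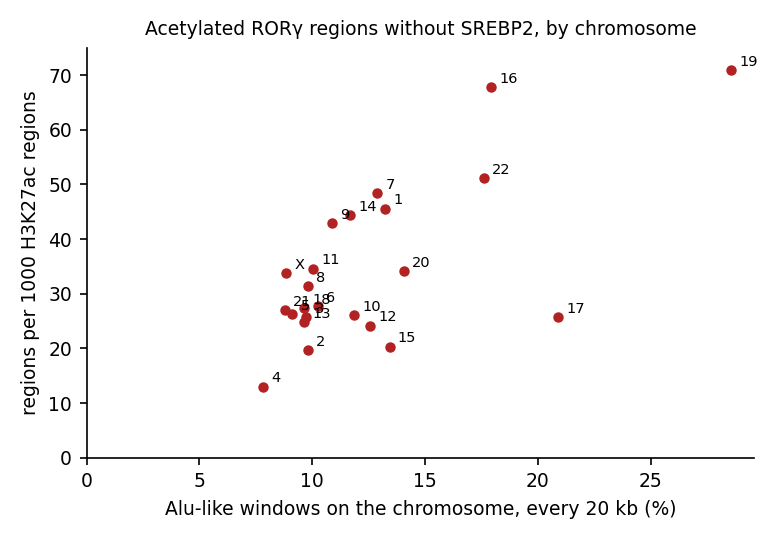
Described regions per 1000 H3K27ac vehicle regions (y axis) against the share of genomic windows every 20 kb with Alu-like sequence (x axis, %), 1 point per chromosome. Chromosomes 19, 16 and 22 stand at the upper right with 70.8, 67.8 and 51.2, and chromosome 17 lies apart at 25.8.

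Few of these regions were called again with XY018. A RORγ XY018 region overlapped 401 of the 3691 (10.9%, 9.88 to 11.9), against 36.4% of all RORγ vehicle regions, 92.0% of co-bound regions and 15.6% of non-acetylated regions. The kept share of co-bound regions in the described regions' own classes of fold was 64.1%, a difference of -53.3 points (-55.1 to -51.5). The classes matched fold and not width. Over all folds the median width was 602 bp at co-bound and 215 bp at described regions, and a wider region is overlapped more readily. The kept share of non-acetylated regions in those classes was 16.0%, a difference of -5.09 points (-6.11 to -4.06). Without Alu-like sequence on both sides the second difference was -0.598 points (-3.12 to 1.93), and with it -6.40 points (-7.51 to -5.30). The XY018 library of RORγ gave fewer regions, 129954, from a genome-wide background of 3.65 tags per kb against 4.04, and fewer calls from weaker signal cannot be told apart from lower depth. Within 1 kb a RORγ XY018 region was found at 30.5% of regions, against 30.6% of non-acetylated ones.

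**Figure D5:**
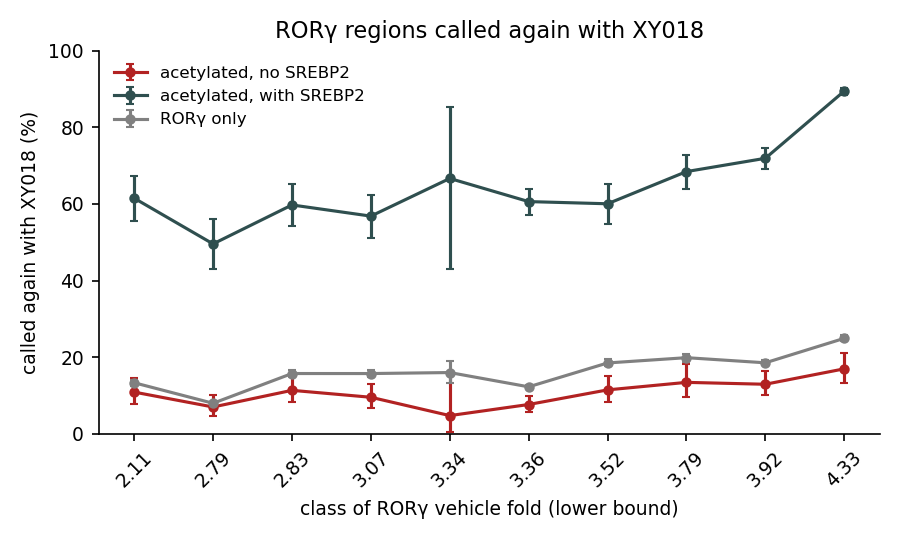
Share of RORγ vehicle regions that overlap a RORγ XY018 region (y axis, %) in 10 classes of RORγ vehicle fold (x axis, lower bound of the class), with exact 95% intervals. Described regions lie between 4.76% and 17.0%, non-acetylated regions between 7.98% and 24.9%, and co-bound regions between 49.6% and 89.5%.

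A call with XY018 was not always at the same summit. At 252 of the 401 kept regions the XY018 summit lay inside the vehicle region. At 43 the XY018 region also overlapped a co-bound vehicle region, with a median of 6 fragments in the vehicle region and 19 in the XY018 region. Without those 43 the kept share was 9.70% (8.76 to 10.7). All 8 regions of highest XY018 fold were of this kind, none with the XY018 summit inside, and each lay within 1000 bp of an SREBP2 vehicle region. They lay in SCAF1, with 5 fragments under vehicle and 53 with XY018, in IFI6, with 7 and 61, and in SH3D21, with 7 and 67. The others were in CPTP, with 6 and 49, MGRN1, with 9 and 45, RASA3, with 7 and 38, at the PEX10 promoter, with 5 and 35, and near TFAP2A, with 5 and 29. The XY018 counts there belong to a wider region and are not a level of the vehicle region.

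Among kept regions with an XY018 summit of their own and no co-bound region, the 6 of highest XY018 fold included 5 without Alu-like sequence and 1 with it, an intergenic region near DAP3 with 5 fragments under vehicle and 10 with XY018. The MARCHF3 promoter had 4 fragments with vehicle and 13 with XY018, and the ZNF395 promoter, of a zinc finger gene, had 8 and 12. An intergenic region near GMNN, the geminin gene of replication licensing, had 6 and 11. An intron of MCCC1, a gene of leucine catabolism, had 8 and 11. These regions were picked after their values were seen, and the exact Poisson intervals of both counts overlapped at each.

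At regions called in both libraries the summit pileup over background had a median XY018 to vehicle ratio of 1.11 (n = 401), with medians of 6 fragments in each. For the regions that met the same rule in the XY018 libraries the ratio was 0.947 (0.947 to 0.983, n = 1072). The ratio thus lay on opposite sides of 1 by the library used for the choice, and no direction is read from it. It was 1.03 (1.02 to 1.03) at co-bound regions.

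H3K27ac was called again with XY018 at 2068 regions (56.0%, 54.4 to 57.6). The share was 86.6% at co-bound regions, 16.5% over all RORγ vehicle regions and 69.3% over all H3K27ac vehicle regions. H3K27ac regions with a described region and no SREBP2 were kept at 57.2%, against 59.6% of regions with neither factor in the same classes of H3K27ac fold, a difference of -2.38 points (-4.04 to -0.727). Under regions called in both libraries the pileup ratio was 1.10 (1.10 to 1.11, n = 2219), against 1.13 for H3K27ac regions with neither factor and 1.20 under co-bound regions. The peak numbers in the H3K27ac lists run past the number of peaks listed, to 245055 with vehicle and 241397 with XY018, and the step that shortened the lists is not described in the labels or methods.

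SREBP2 was called with XY018 at 219 regions (5.93%, 5.19 to 6.74), against 26.4% of all RORγ vehicle regions and 3.74% (3.63 to 3.86) of non-acetylated regions. By all 3 XY018 lists, 1749 regions (47.4%) kept H3K27ac alone and 1371 (37.1%) overlapped no XY018 region. RORγ and H3K27ac without SREBP2 were found at 182 (4.93%), and all 3 at 25. RORγ alone was found at 170.

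The same rule in the XY018 libraries gave 4087 regions, of which 168 met the rule in both treatments, 4.55% of the vehicle set and 4.11% of the XY018 set. Of the XY018 set, 26.2% overlapped a RORγ vehicle region, 53.5% an H3K27ac vehicle region and 35.5% an SREBP2 vehicle region. Its median of 6 fragments was that of the vehicle set, and its Alu-like share was lower, 57.4% (55.8 to 58.9), with promoters at 20.1%.

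The 750 regions without Alu-like sequence differed in place from the 2941 with it. They lay nearer to SREBP2, with a median gap of 530.5 bp against 3148 bp, and 40.4% (303 of 750) against 8.94% (263 of 2941) shared their H3K27ac region with SREBP2. They overlapped promoters more often, 23.3% (20.3 to 26.5) against 10.4% (9.29 to 11.5). With XY018, 14.8% (12.3 to 17.5) kept RORγ against 9.86% (8.81 to 11.0), and 11.2% (9.03 to 13.7) had an SREBP2 call against 4.59% (3.86 to 5.41). The median RORγ folds were both 3.36.

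Promoters of 376 protein-coding genes carried one of these regions, 1.87% of 20090. Of the 376, 279 (74.2%) also carried a co-bound region. Over all protein-coding genes the share was 49.3%, 9913 genes, beside 13421 genes with an acetylated promoter. An SREBP2 region lay elsewhere in the promoter windows of 338 of the 376 (89.9%), against 14184 of the 20090. Described and co-bound regions are acetylated by definition, while the 20090 include genes without an acetylated promoter. No difference is therefore read from these shares. Of the 21 genes of cholesterol biosynthesis, HMGCS1 and MVD carried a described region at the promoter. HMGCS1, the synthase of HMG-CoA, had 4 RORγ fragments at chr5:43313080-43313274, 220 bp from an SREBP2 region, and no RORγ call with XY018. MVD, the decarboxylase of mevalonate diphosphate, had 6 fragments at chr16:88726046-88726290 over Alu-like sequence, 108 bp from SREBP2, and none with XY018. Their H3K27ac pileups were 22 and 20 fragments with vehicle and 16 and 11 with XY018. A co-bound promoter region was found at 15 of the 21, against 9913 (49.3%) of the 20090 protein-coding genes. The promoter was acetylated at 20 of the 21 and at 13421 of the 20090, so no difference is read here either.

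Over all protein-coding genes 1.87% carried a described region at the promoter, and the other lists are given beside that share. Among 11 TEAD and YAP targets, AMOTL2, an angiomotin family gene of the Hippo pathway, had a region with 6 fragments and no XY018 call. No promoter region was found at 19 circadian clock genes, 14 RORγt targets of Th17 cells, 12 AP-1 genes, 10 coregulators, 18 basal, 14 luminal, 4 epithelial, or 6 blood and stromal genes. H3K27ac at those markers is given as a description, beside 13421 of the 20090 protein-coding genes with an acetylated promoter. With the mark at most promoters, the counts do not tell cell types apart. Acetylated promoters were found at 15 of 18 basal markers, not at KRT6A, KRT6B and KRT14, and at all 4 epithelial markers. They were found at 10 of 14 luminal markers, with PGR, TFF1 and TFF3 among those without, and at 4 of 6 blood and stromal markers, not at PTPRC and CD3E.

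Gene bodies held more of them. At least 1 region overlapped the body of 2011 protein-coding genes, 10.0% of 20090, and 2656 of the 3691 regions (72.0%) lay inside such a gene. Longer genes offer more sequence, and counts were not scaled for length. DNM2, the dynamin 2 gene of endocytosis, held 11 over 115 kb with 4 to 7 fragments each, and 10 were over Alu-like sequence. UBAP2 held 10, ABCC1, a drug efflux transporter gene, and GTF2IRD1 held 9 each, and SULT2B1, the sulfotransferase of cholesterol, held 8 over 47.3 kb. NUP155 held 7 with 7 to 14 fragments, and 4 of them were called again with XY018, against at most 1 in each of DNM2, UBAP2, ABCC1, GTF2IRD1 and SULT2B1. Regions also lay in CTCF, the insulator protein gene, with 7, and SMARCA4, the ATPase of the SWI/SNF remodelling complex, with 7.

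Of the gene lists, 6 of 21 cholesterol genes held a region in the body: HMGCS1 with 2, and PMVK, MVD, FDPS, CYP51A1 and TM7SF2 with 1 each. None of those 7 regions was called again for RORγ with XY018, and 5 held Alu-like sequence. Over all 3691 regions the shares were 10.9% and 79.7%, so with 7 regions no difference is read. Of 18 basal markers 3 held a region in the body. CDH3, the P-cadherin gene, was one of them and held 7, all over Alu-like sequence, with 6 to 8 fragments. The region at chr16:68739256-68739450 was the one of the 7 with a RORγ call under XY018, with 7 fragments under vehicle and 8 with XY018. WWTR1, which encodes the YAP partner TAZ, held 4, CDH1, the E-cadherin gene, held 2, and SREBF2, which encodes SREBP2, held 2. The coactivator genes NCOA3 and EP300 held 2 each. NR1D2 and TEF held 1 each among 19 clock genes. Among the other lists, 2 of 11 TEAD and YAP targets, 2 of 4 epithelial genes and 3 of 10 coregulator genes held a region. No region lay in the body of the 14 listed RORγt targets, 12 AP-1 genes, 14 luminal markers or 6 blood and stromal genes. The lists are short and gene length was not taken into account, so no difference between them is read. The share over all protein-coding genes was 10.0%.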

How the data were processed

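The authors mapped tags to hg19 and called regions against input with MACS2 2.1.0. The study's methods name single-end 50-bp reads, BWA 0.7.15 and uniquely mapped, deduplicated tags, while the labels name a paired-end library kit and the submitters' processing notes Bowtie2. A fragment here is 1 unit of the MACS pileup, from 1 tag or a pair. Each deposited list gives a score, the fold over local background at the summit (a ratio), −log10 p and −log10 q. Only the region lists of the 6 immunoprecipitated libraries were used here, and chromosome Y was left out by the rule.

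From the deposited fold and −log10 p, the fragments at each summit were recovered under the Poisson model of MACS, as whole numbers within a tolerance of 5% of a step, at 99.99% or more of regions per list. Genome-wide backgrounds of 3.65 to 6.16 tags per kb show shallow libraries. Overlap meant at least 1 bp. Differences in shares were averaged over 10 classes of fold weighted by the described regions. Intervals are 95% and exact (Clopper-Pearson or Poisson), or from binomial variances for differences and from order statistics for medians. They cover counting error only.

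Annotation was GENCODE v44lift37 and sequence GRCh37, the build of the lists. Alu-like sequence was sought with blastn 2.17.0 (word size 7, e-value at most 1e-05) in windows of 100 bp to either side of the summit. Motifs were sought on both strands, the hexamer AGGTCA also within longer motifs such as the RORE core. Regions were named by rank of vehicle and XY018 fold (12 and 8), the 5 H3K27ac regions with most of them, listed genes and the edges of the rule. Scripts (Python 3.11.15, scipy 1.17.1, pysam 0.24.0) were tested on simulated data. The described regions and gene lists were chosen with earlier results of these data known, and gene bodies, Alu-like sequence and XY018 summits were examined after the data were seen. Certain listed genes and summit sequences are not reported here.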

Additional observations from a re-analysis of the deposited data

How the results depend on the processing

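No paired analysis was possible because each group held 1 library, and none could be left out. Of 99 alternatives, 28 stayed within the interval or factor set for them, 70 moved and 1 reversed. The reversed value was the RORγ pileup ratio, 0.947 for regions chosen with XY018. It was 1.33 without Alu-like sequence. The H3K27ac ratio was 1.07 for regions chosen with XY018 and 1.13 without Alu-like sequence. The number of regions was 1694 at a q of at most 0.01 in every list, 83 at a RORγ q of at most 1e-05 and 750 without Alu-like sequence.

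With q at most 0.01 in every list, 7.91% kept RORγ, 4.43% had SREBP2 with XY018, and the kept difference from co-bound regions was -57.1 points. With RORγ q at most 1e-05 (83 regions), RORγ was kept at 22.9%, SREBP2 called at 14.5%, H3K27ac kept at 57.8%, promoters overlapped at 10.8% and AGGTCA found at 28.9%. With overlap of at least 50% the RORγ and SREBP2 shares were 8.91% and 5.16%. With no SREBP2 within 1 kb they were 8.81% and 3.86%, H3K27ac was kept at 54.0%, promoters overlapped at 8.15%, and the difference from co-bound regions was -55.2 points. Without classes of fold that difference was -81.1 points, with a higher median fold at co-bound regions. Not counting XY018 regions shared with co-bound ones gave a kept share of 9.70%. The promoter share was 58.6% within 5 kb of a start.

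AGGTCA was found at 14.0% within 50 bp and at 26.4% for regions chosen with XY018. Alternatives on Alu-like sequence were chosen after the data were seen. Without Alu-like sequence 14.8% kept RORγ, 11.2% had SREBP2, 58.7% kept H3K27ac, 23.3% overlapped promoters, 13.9% held AGGTCA, and the kept difference from non-acetylated regions was -0.598 points, with an interval across 0. The Alu-like share was 66.0% at an e-value of at most 1e-10, 45.4% where the match covered the summit base, 85.5% at a RORγ q of at most 1e-05, 82.0% at a q of at most 0.01 in every list, 87.6% with no SREBP2 within 1 kb and 57.4% for regions chosen with XY018. Causes of these shifts were not tested. The summit pileups of 3 to 16 fragments limit the precision of each region's value.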
